A study of Mus musculus with 4 samples.

Results

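Bone is laid down by osteoblasts, which differentiate from stromal progenitors of the marrow, and it is removed by osteoclasts, which arise from blood-forming cells. The genes described here cover both sides of that balance: the transcription factors Runx2, Sp7 and Dlx5, which direct osteoblast differentiation, the mineralization enzyme Alpl, the phosphate regulator Phex, the bone matrix glycoproteins Ibsp and Spp1, and the pair Tnfsf11 and Tnfrsf11b. Tnfsf11 encodes RANKL, the cytokine that osteoclast precursors need in order to mature, and Tnfrsf11b encodes osteoprotegerin, a soluble decoy receptor that captures RANKL. TGF-b is stored in bone matrix and is a classical regulator of both cell types.

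These 9 genes were looked up among the probe sets that carry a single gene symbol in the platform annotation. Of the 9 genes, 7 had such a probe set, and Alpl had 2, which gave 8 probe sets out of 41345. The other 2 genes, Runx2 and Spp1, were matched to no probe set, so their RNA levels were not analysed here.

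The arrays measured RNA from mesenchymal stem cells derived from mouse bone marrow, which grow as stromal cells and can form bone, cartilage and fat. There were 4 groups with 1 Affymetrix array each: Snail1-KO cells given TGF-b1 for 2 h, untreated Snail1-KO cells, Snail1-WT cells given TGF-b1 for 2 h, and untreated Snail1-WT cells. Snail1 is a transcriptional repressor encoded by Snai1. The sources used here do not give how Snai1 was inactivated, the age and strain of the mice, whether cells were pooled or cloned, or the amount of TGF-b1. With 1 array a group, the values below are descriptions and no group was tested against another.

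Values are log2 values after RMA, so a difference of 1 is a 2-fold difference. The array medians lay between 4.58 and 4.63. Each gene was represented by its brightest probe set on average, and the 60% of genes with the highest mean, 13308 of 22180, were kept as clear of the dimmest signals; the lowest mean kept was 4.51. As a yardstick of error, the SD that noise gives to an array-to-array difference (the noise SD) was estimated by how far the genotypes' TGF-b1 responses disagreed among the 500 genes nearest in level. It leaves out whatever both arrays of a genotype share, culture differences included. It equally leaves out whatever both treated arrays or both untreated arrays share, handling included. Snai1 measured 5.34 with and 5.09 without TGF-b1 in Snail1-KO cells, against 7.63 with and 6.69 without it in Snail1-WT cells, which is the order of the labels. The 7 measured stromal markers were unequal. High on all arrays were the growth factor receptor genes Pdgfrb (10.66 to 11.59) and Pdgfra (10.13 to 11.10), Eng (9.25 to 9.65) and Vcam1 (9.13 to 9.57). Thy1 lay between 5.19 and 5.67, Nt5e was below 4.51 on 3 arrays, and Lepr, at 2.86 to 3.20, on all 4. Over the 7 markers the median genotype difference was -0.24 with and -0.30 without TGF-b1, and 5 and 7 of the 7 were lower in Snail1-KO cells. The part of that difference in the results below was not tested. Of 8 markers of macrophages and other blood cells, the leukocyte gene Ptprc lay between 3.15 and 3.78, but Cd68 (6.05 to 6.23) and Cd14 (5.53 to 6.59) were above 4.51 on every array. Of 4 endothelial markers, 3 passed the filter and none was 2-fold apart in any comparison. Pecam1, 1 of them, lay between 4.40 and 4.80. In bulk RNA of this kind, fewer cells of a type and less RNA per cell cannot be told apart.

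Of the 7 genes with a probe set, Dlx5, Alpl and Tnfrsf11b passed the filter, and Sp7, Phex, Ibsp and Tnfsf11 did not. The alkaline phosphatase gene Alpl and the phosphate regulator Phex were the members at least 2-fold apart between the genotypes, in opposite directions. Their promoter windows are shown for that reason, as RefSeq sequence of GRCm38.p6 from 250 bases before to 50 bases after each annotated start, 5′ to 3′ on the minus strand, which is the transcribed direction of both genes. Capitals mark matches to any of 4 motifs searched on both strands: the E-box CAGGTG (reverse CACCTG) bound by Snail factors, the RUNX site TGTGGT (reverse ACCACA), the SMAD site CAGAC (reverse GTCTG) and the AP-1 site TGANTCA. Alpl has 2 annotated starts, listed in the order of transcription, and its probe sets do not say which start was used.
Alpl start 1, chr4:137796335-137796634: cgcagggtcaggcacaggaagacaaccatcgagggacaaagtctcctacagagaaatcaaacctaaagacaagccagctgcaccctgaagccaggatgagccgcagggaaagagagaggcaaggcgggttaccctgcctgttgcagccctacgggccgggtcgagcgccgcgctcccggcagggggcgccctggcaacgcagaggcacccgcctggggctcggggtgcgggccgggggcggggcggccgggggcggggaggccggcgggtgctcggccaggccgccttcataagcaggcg
Alpl start 2, chr4:137766426-137766725: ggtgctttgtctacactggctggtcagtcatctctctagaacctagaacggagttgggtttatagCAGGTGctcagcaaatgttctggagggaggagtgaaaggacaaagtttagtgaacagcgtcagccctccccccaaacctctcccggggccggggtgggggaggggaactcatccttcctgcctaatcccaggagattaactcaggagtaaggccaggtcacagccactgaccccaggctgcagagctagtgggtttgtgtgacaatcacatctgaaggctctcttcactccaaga
Phex, chrX:157415237-157415536: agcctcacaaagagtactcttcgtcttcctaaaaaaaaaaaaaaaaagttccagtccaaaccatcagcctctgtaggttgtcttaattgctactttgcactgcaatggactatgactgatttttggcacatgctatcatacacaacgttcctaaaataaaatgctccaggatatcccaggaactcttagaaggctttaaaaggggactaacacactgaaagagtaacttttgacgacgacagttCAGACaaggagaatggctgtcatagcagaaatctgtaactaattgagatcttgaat
The window of the second Alpl start held 1 E-box, beginning 185 bases before the start, and that of the first start held none of the 4 motifs. The Phex window held 1 SMAD site, beginning 6 bases before the start. An E-box of this kind was present in 20.2% of all 32851 promoter windows of this length, a SMAD site in 49.6%, a RUNX site in 16.8% and an AP-1 site in 7.81%. The windows of Ibsp and Tnfsf11 held none of the 4 motifs. Of the members with no probe set, the Runx2 window held 3 RUNX sites. The window of the first Spp1 start held 1 E-box, 1 RUNX site and 2 SMAD sites, and that of its second start held 1 SMAD site. Tnfrsf11b, Dlx5 and Sp7 have no entry in the table used. A match describes letters in a window and is not a binding site.

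Among the transcription factors, Dlx5 was measured well above the filter. Dlx5 is a homeobox factor that acts early in osteoblast commitment and activates other osteoblast regulators. Dlx5 measured 9.22 with and 8.32 without TGF-b1 in Snail1-KO cells, against 8.59 with and 7.96 without it in Snail1-WT cells. Each treated array was above the untreated array of its genotype, and each Snail1-KO array was above the Snail1-WT array of the same treatment. TGF-b1 minus untreated was 0.89 in Snail1-KO cells, a 1.86-fold difference, and 0.63 in Snail1-WT cells, a 1.55-fold difference. The noise SD at the level of Dlx5 was 0.09. Among the 13308 kept genes these were the 179th and the 289th largest increases in Snail1-KO and Snail1-WT cells. At least 1.5-fold apart in either direction after TGF-b1 were 5.14% of kept genes in Snail1-KO cells and 4.37% in Snail1-WT cells. The genotype difference of Dlx5, Snail1-KO minus Snail1-WT, was 0.62 with TGF-b1 and 0.36 without it; 8.14% of kept genes were at least 1.5-fold apart with TGF-b1.

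Sp7, also called osterix, is the zinc finger factor that commits cells to the osteoblast fate. Sp7 measured 4.41 with and 4.58 without TGF-b1 in Snail1-KO cells, against 4.29 with and 4.38 without it in Snail1-WT cells. Only the untreated Snail1-KO array exceeded 4.51, and each of the 4 pairwise differences, between -0.17 and 0.20, was smaller than the noise SD of 0.24. No difference in Sp7 could be read at this level.

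**Figure D1:**
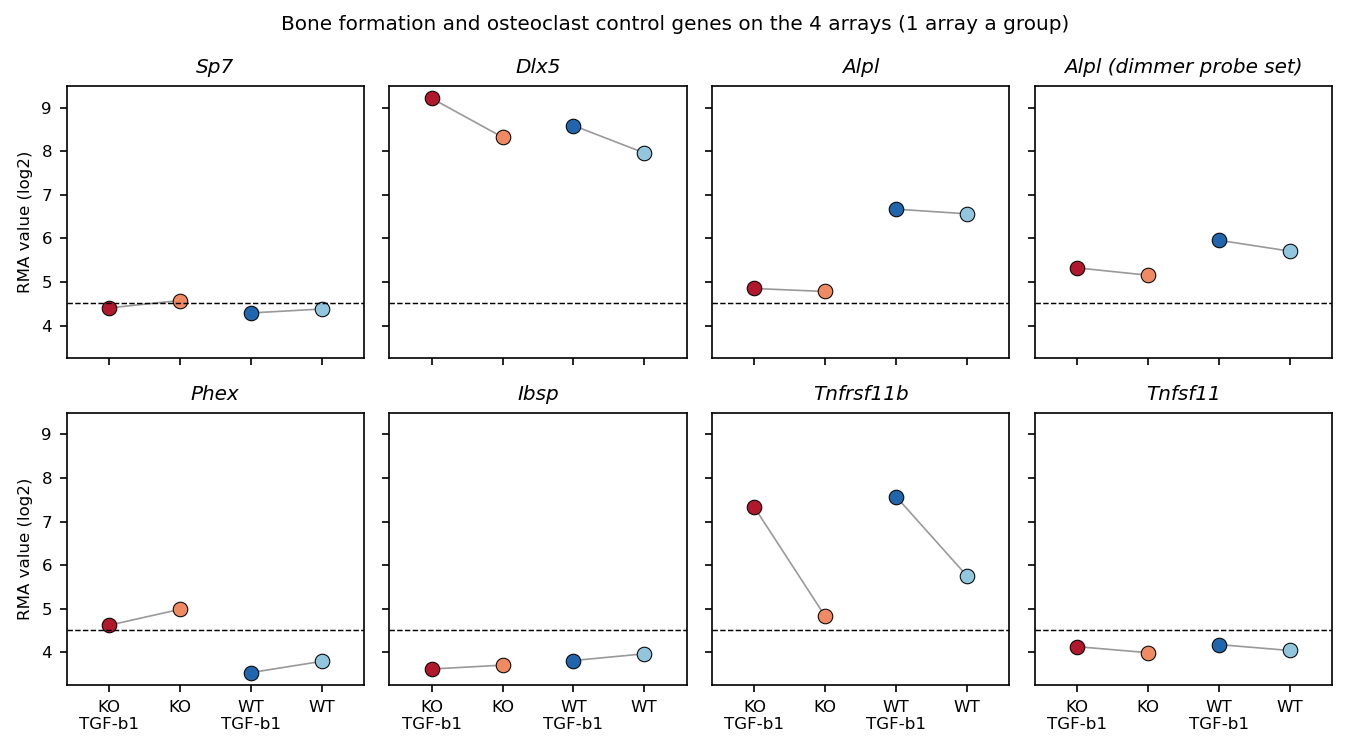
RMA values (log2) of the 8 probe sets on the 4 arrays, 1 point per array, with a line joining the treated and untreated array of a genotype; KO is Snail1-KO and WT is Snail1-WT. The dashed line is the lowest mean kept, 4.51. Alpl is lower on both Snail1-KO arrays for both of its probe sets, Tnfrsf11b is higher on both treated arrays, and Ibsp and Tnfsf11 stay under the dashed line on all arrays.

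Alpl encodes tissue-nonspecific alkaline phosphatase, which hydrolyses pyrophosphate and so lets mineral form. The brighter Alpl probe set measured 4.85 with and 4.78 without TGF-b1 in Snail1-KO cells, against 6.67 with and 6.57 without it in Snail1-WT cells. Both Snail1-KO arrays were below both Snail1-WT arrays, and within a genotype the treated and untreated arrays were nearly level. Snail1-KO minus Snail1-WT was -1.82 with TGF-b1, a 3.53-fold lower level, and -1.78 without it, a 3.44-fold lower level, beside a noise SD of 0.20. These were the 8th and the 16th largest decreases among kept genes with and without TGF-b1. By this probe set, Alpl was thus the 1 of 3 members passing the filter that was at least 2-fold apart in either pair. Of all kept genes, 1.7% were at least 2-fold apart with TGF-b1 and 1.57% without it. At least 2-fold lower in both pairs were 0.473% of kept genes.

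The dimmer Alpl probe set measured 5.32 with and 5.16 without TGF-b1 in Snail1-KO cells, against 5.96 with and 5.71 without it in Snail1-WT cells. It was dimmer by the mean over the 4 arrays, but on both Snail1-KO arrays it was the higher one. The count and ranks of Alpl above rest on the probe set that was higher on the Snail1-WT arrays only. By the dimmer probe set, Alpl would not be counted as 2-fold apart. This probe set gave the same direction as the brighter one and a smaller size. Snail1-KO minus Snail1-WT was -0.63 with TGF-b1 and -0.55 without it, which are 1.55-fold and 1.47-fold lower levels, and the noise SD at its level was 0.22. As the mean of both probe sets the genotype difference of Alpl was -1.23 with TGF-b1 and -1.17 without it. The TGF-b1 responses of Alpl were small in both probe sets. They were 0.07 in Snail1-KO cells and 0.11 in Snail1-WT cells for the brighter one, and 0.17 and 0.25 for the dimmer one.

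Phex encodes a membrane endopeptidase of osteoblasts and osteocytes whose loss in mice and people causes phosphate wasting. Phex measured 4.62 with and 4.98 without TGF-b1 in Snail1-KO cells, against 3.53 with and 3.79 without it in Snail1-WT cells. Both Snail1-KO arrays lay above 4.51 and both Snail1-WT arrays below it. Snail1-KO minus Snail1-WT was 1.09 with TGF-b1 and 1.19 without it, with a noise SD of 0.24. Since Phex failed the filter and the treated Snail1-WT value was under the lower quartile of that array, 3.65, the size of the difference is uncertain. With no filter on low values, 2 of 7 members (Alpl and Phex) were at least 2-fold apart between the genotypes in each pair, beside 1.17% of all 22180 genes with TGF-b1 and 1.13% without it. After TGF-b1 Phex differed by -0.36 in Snail1-KO cells and by -0.26 in Snail1-WT cells.

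Ibsp encodes bone sialoprotein, a glycoprotein of mineralizing matrix that marks mature osteoblasts. Ibsp measured 3.61 with and 3.70 without TGF-b1 in Snail1-KO cells, against 3.81 with and 3.96 without it in Snail1-WT cells. The 4 arrays were all below 4.51. The genotype difference of Ibsp was -0.20 with TGF-b1 and -0.26 without it, about the size of its noise SD of 0.25.

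Tnfrsf11b, the osteoprotegerin gene, was the 1 of 3 members passing the filter that was at least 2-fold apart after TGF-b1, in both genotypes. Tnfrsf11b measured 7.33 with and 4.82 without TGF-b1 in Snail1-KO cells, against 7.57 with and 5.76 without it in Snail1-WT cells. The treated arrays of the genotypes lay close together and the untreated arrays farther apart, with untreated Snail1-KO cells lowest. TGF-b1 minus untreated was 2.50 in Snail1-KO cells, a 5.66-fold difference, and 1.82 in Snail1-WT cells, a 3.53-fold difference, beside a noise SD of 0.17. These ranked 8th and 10th among the increases of the kept genes, of which 1.31% in Snail1-KO cells and 0.984% in Snail1-WT cells were at least 2-fold apart in either direction. At least 2-fold higher in both responses were 0.511% of kept genes.

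The genotype difference of Tnfrsf11b, Snail1-KO minus Snail1-WT, was -0.25 with TGF-b1 and -0.93 without it; 7.15% of kept genes were at least 1.5-fold apart without TGF-b1. The response in Snail1-KO cells exceeded that in Snail1-WT cells by 0.68, with a noise SD of 0.24 for a difference of responses. Of the 7 members, Tnfrsf11b had the largest such difference. Dlx5 followed at 0.26, with a noise SD of 0.13, and the other 5 lay between -0.11 and 0.06. None of the 7 was 2-fold apart in its responses, and with 1 array a group the difference was not tested. The difference of Tnfrsf11b also rests on its untreated Snail1-KO value of 4.82, near the lowest mean kept.

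Tnfsf11, the RANKL gene, was low on every array. Tnfsf11 measured 4.13 with and 3.99 without TGF-b1 in Snail1-KO cells, against 4.18 with and 4.04 without it in Snail1-WT cells. The 4 values were below 4.51 and spanned less than the noise SD of 0.25. TGF-b1 minus untreated was 0.14 in each genotype, and Snail1-KO minus Snail1-WT was -0.05 in each pair. The 2 osteoclast control genes thus differed in what was measured: osteoprotegerin was higher on both treated arrays, and no difference in RANKL was detectable near the low end of the array.

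**Figure D2:**
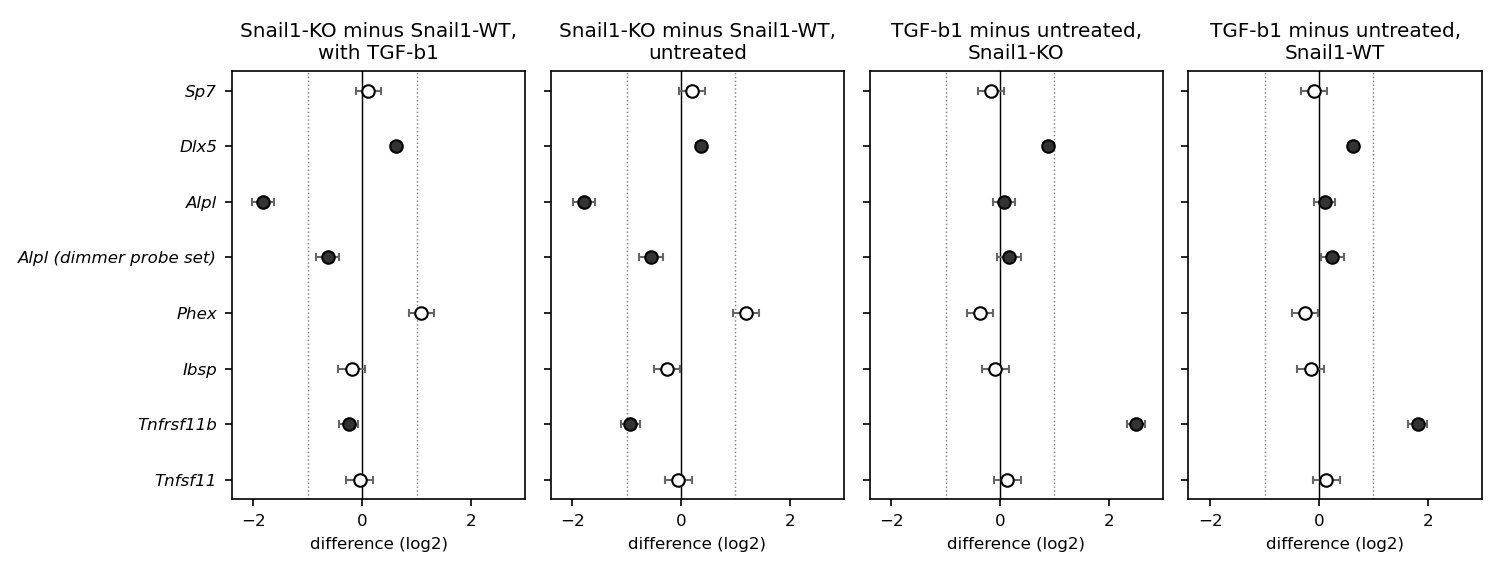
Differences (log2) of the 8 probe sets in the 4 comparisons, with bars of 1 noise SD to either side and dotted lines at 2-fold. Filled points have all 4 arrays above 4.51 and open points do not. The brighter Alpl probe set is the only filled point past 2-fold between the genotypes (-1.82 with and -1.78 without TGF-b1). Tnfrsf11b is the only one after TGF-b1 (2.50 in Snail1-KO and 1.82 in Snail1-WT cells).

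Over the 7 members whatever their level, the median genotype difference was -0.05 with TGF-b1 and -0.05 without it, beside -0.02 and 0.01 over all 22180 genes. The median TGF-b1 response was 0.07 in Snail1-KO cells and 0.11 in Snail1-WT cells, beside -0.02 and -0.01 over all genes. The members did not share a direction, and the 2-fold differences were those of Alpl, Phex and Tnfrsf11b alone. In sign, 4 of the 7 were lower and 3 higher in Snail1-KO cells in each pair. After TGF-b1, 4 were higher and 3 lower in each genotype. Responses of the genotypes share no array, and neither do the genotype pairs, but the genotype and TGF-b1 comparisons use the same 4 arrays.

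**Figure D3:**
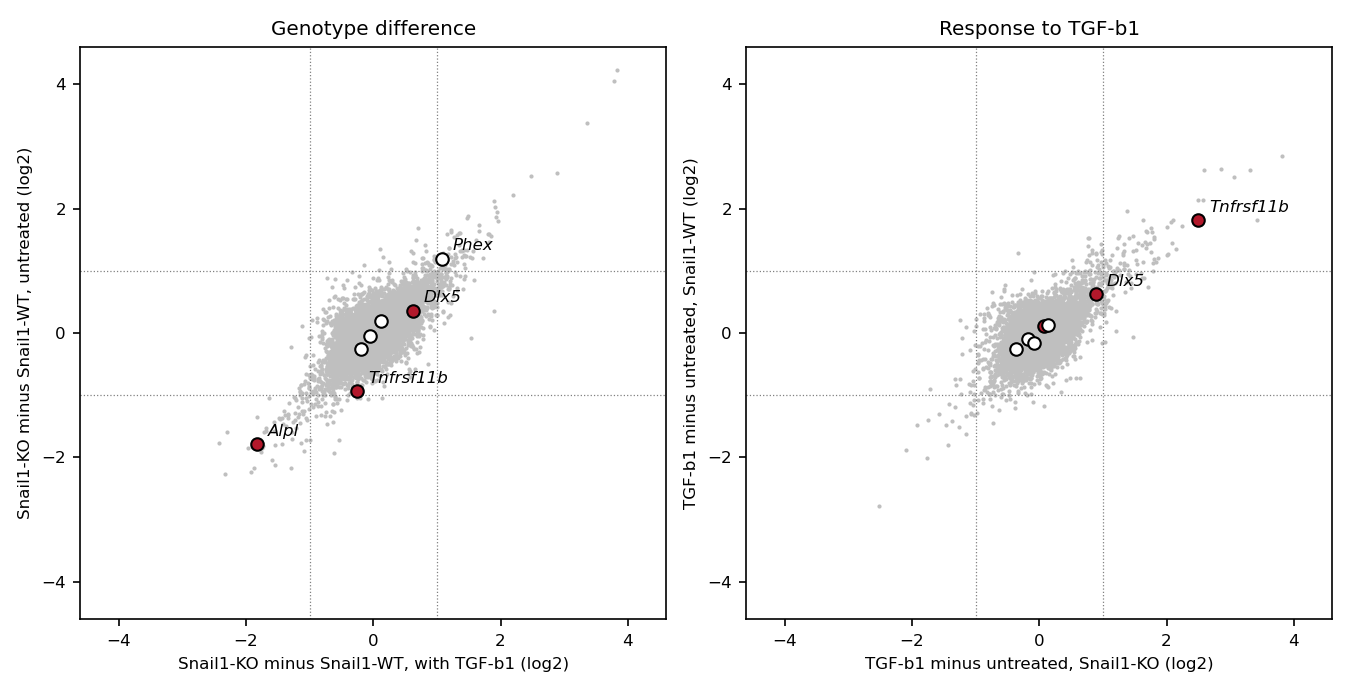
Differences (log2) of the 13308 kept genes (grey) and the 7 members (red where they passed the filter, white where not), as the genotype difference with against without TGF-b1 on the left and the TGF-b1 response in Snail1-KO against Snail1-WT cells on the right. Alpl lies in the lower left of the genotype panel and Tnfrsf11b in the upper right of the response panel, each past 2-fold on both axes. Dotted lines are at 2-fold.

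The kept genes whose profile over the 4 arrays was nearest to that of Alpl, by Euclidean distance between profiles centred on their means, were Igf2 (distance 0.10), Cep126 (0.12) and Mmp3 (0.18). Igf2 encodes an insulin-like growth factor, Cep126 a centrosomal protein and Mmp3 the metalloproteinase stromelysin. Both Snail1-KO arrays were below 4.51 for Cep126, at 4.495 and 4.498, and for Mmp3, at 3.93 and 3.96. Nearest to Tnfrsf11b were Il6 (0.20), the EGF receptor ligand gene Hbegf (0.24) and the matricellular gene Ccn4 (0.42). With 4 arrays many genes can share a profile, so these are descriptions of likeness only.

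Other genes of bone formation were examined as 4 lists, which together held 49 measured genes out of 56, 44 of them passing the filter. Between the genotypes, Snail1-KO minus Snail1-WT was at least 2-fold up for 1 and down for 2 of the 49 with TGF-b1, and up for 2 and down for 2 without it. After TGF-b1, Snail1-KO cells had 4 of them up and 1 down, and Snail1-WT cells had 4 up and 0 down. The shares at least 2-fold apart were 6.12%, 8.16%, 10.2% and 8.16%, against 1.17%, 1.13%, 0.915% and 0.694% of all genes in the same order. Most list genes passed the filter, and of kept genes the shares were higher, at 1.7%, 1.57%, 1.31% and 0.984%. The lists were chosen by what their genes do with earlier results of these data known, so the shares of the lists are descriptions and carry no test.

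Of 13 measured osteoblast regulators, none was 2-fold apart between the genotypes, and the median difference was -0.02 with and 0.02 without TGF-b1. Runx1, a runt factor related to Runx2 and best known from blood formation, measured 9.08 with and 7.32 without TGF-b1 in Snail1-KO cells, against 9.35 with and 8.04 without it in Snail1-WT cells. Its TGF-b1 response was 1.76 in Snail1-KO cells and 1.31 in Snail1-WT cells. Maf, a leucine zipper factor that in mice favours bone over fat formation, responded by -1.22 in Snail1-KO cells and by -0.98 in Snail1-WT cells. The list's median response was 0.18 in Snail1-KO and 0.20 in Snail1-WT cells.

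Of 14 measured genes of bone matrix and mineralization, Omd, the gene of the bone proteoglycan osteomodulin, was at least 2-fold higher in Snail1-KO cells in both pairs, opposite to Alpl. Omd measured 7.52 with and 7.42 without TGF-b1 in Snail1-KO cells, against 4.64 with and 4.85 without it in Snail1-WT cells. Ank, whose product brings the mineralization inhibitor pyrophosphate out of the cell, was higher in Snail1-KO cells by 0.81 with and 1.13 without TGF-b1. Slc20a1, a phosphate importer of mineralizing cells, was higher after TGF-b1 by 2.00 in Snail1-KO cells and 1.70 in Snail1-WT cells. The list's median genotype difference was 0.10 with and 0.10 without TGF-b1, and its median response was 0.08 in Snail1-KO cells and 0.02 in Snail1-WT cells.

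Of 15 signals from stromal cells to osteoclasts, Sfrp1, a secreted WNT antagonist, was lower in Snail1-KO cells with and without TGF-b1. Sfrp1 measured 9.65 with and 9.78 without TGF-b1 in Snail1-KO cells, against 11.33 with and 11.35 without it in Snail1-WT cells, a difference of -1.68 and -1.58. The cytokine gene Il6, which promotes osteoclast formation, was higher after TGF-b1 by 2.24 in Snail1-KO cells and 1.73 in Snail1-WT cells, and the untreated Snail1-KO value of 4.43 was below 4.51. Its relative Il11 was higher by 0.73 in Snail1-KO cells and 1.14 in Snail1-WT cells, with both untreated arrays below 4.51. Ptgs2, which encodes an inducible prostaglandin synthase, had responses of 1.17 in Snail1-KO cells and 0.99 in Snail1-WT cells. In sign, 11 of the 15 were lower in Snail1-KO cells with TGF-b1 and 10 without it, and the list's median difference was -0.33 and -0.26. Over all 22180 genes the median was -0.02 with and 0.01 without TGF-b1. The 7 stromal markers leaned the same way, with medians of -0.24 and -0.30 and 5 and 7 of them lower. The lean was thus not particular to this list.

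Of 7 genes associated with osteocytes, the cells buried in bone, Fgf23 was lower by at least 2-fold in Snail1-KO cells, with and without TGF-b1. Fgf23 encodes a hormone that lowers blood phosphate. It measured 4.20 with and 4.47 without TGF-b1 in Snail1-KO cells, against 5.32 with and 5.71 without it in Snail1-WT cells. Both Snail1-KO arrays were below 4.51, so the size of the difference, -1.12 and -1.25, is uncertain. None of the 7 was 2-fold apart after TGF-b1. The hyaluronan receptor gene Cd44 had the next largest difference of this list, 0.55 in Snail1-KO cells and 0.44 in Snail1-WT cells after TGF-b1.

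**Figure D4:**
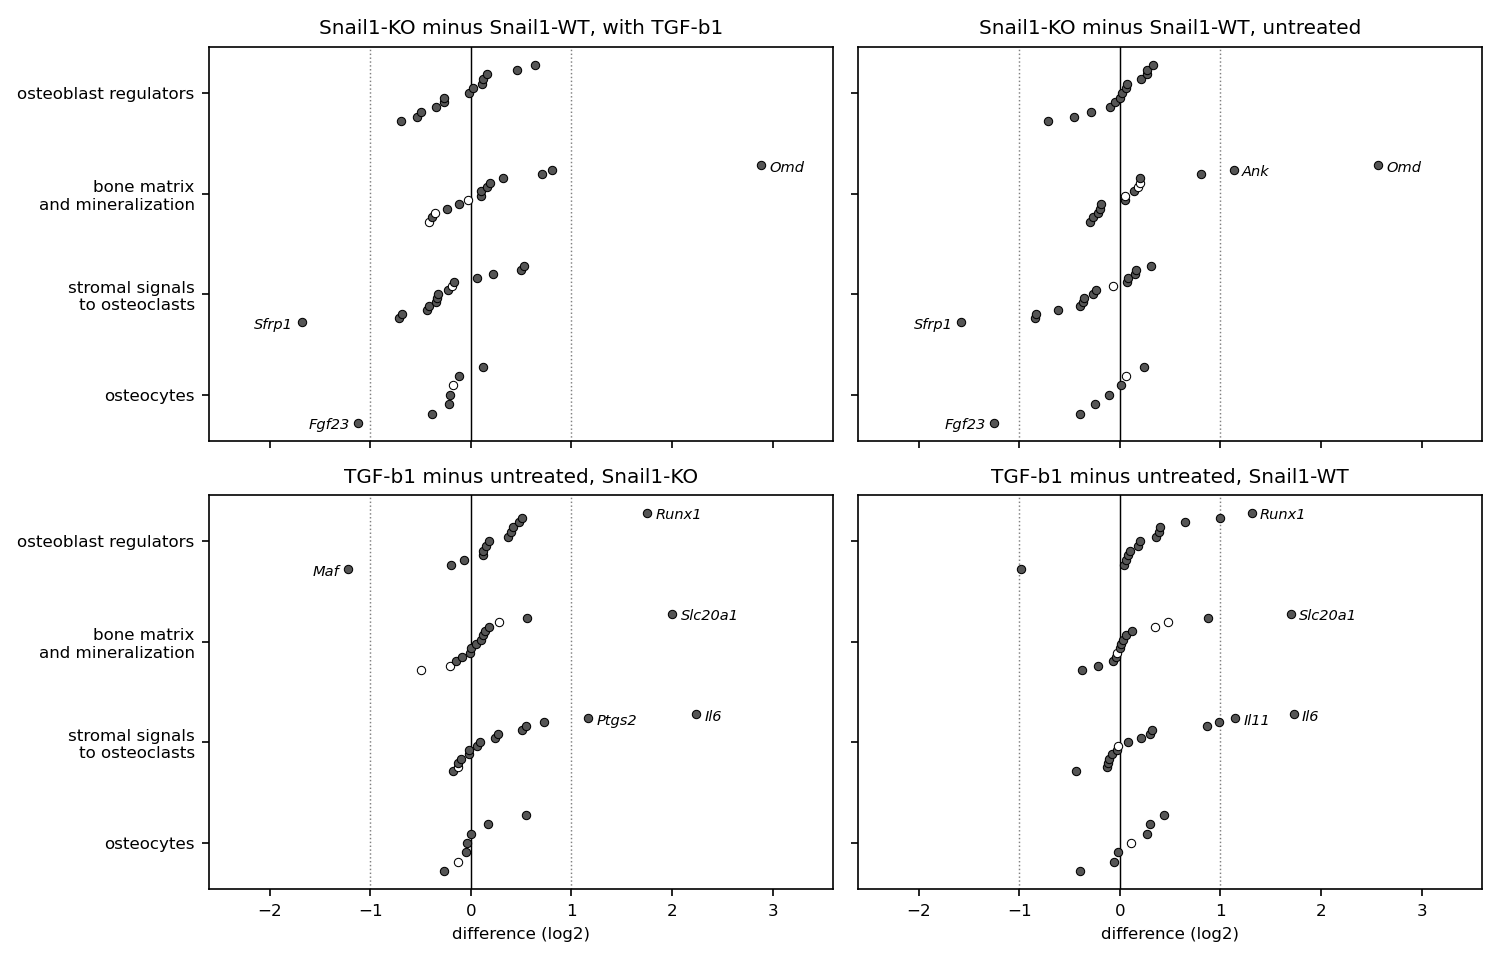
Differences (log2) of the 49 other genes of bone formation in the 4 comparisons, by list, 1 point per gene, filled where the gene passed the filter and open where not, with dotted lines at 2-fold. Genes past 2-fold are named. Omd and Sfrp1 are far apart from the rest of their lists between the genotypes. After TGF-b1, Runx1, Slc20a1 and Il6 have the largest increase of their lists in each genotype.

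Markers of osteoclasts were set beside these values. Of 11 osteoclast markers, 6 passed the filter. The enzyme gene Acp5 lay between 4.11 and 4.57 on the 4 arrays and the calcitonin receptor gene Calcr between 3.64 and 4.14. Above 4.51 on every array were Ctsk (6.50 to 7.06), Mmp9 (4.98 to 5.50) and Ocstamp (4.94 to 5.23), among others. Named after their values were seen, the integrin gene Itgb3 was higher after TGF-b1 by 2.02 in Snail1-KO cells and 1.28 in Snail1-WT cells, and Nfatc1, an osteoclast factor that other cells also use, by 1.42 and 1.02. The other direction was seen below 2-fold in Snail1-KO cells: Acp5, Calcr and Tnfrsf11a, the receptor gene for RANKL, differed by -0.46, -0.29 and -0.54 in Snail1-KO cells and by -0.07, 0.09 and 0.04 in Snail1-WT cells. Over the 11 markers the median response was 0.06 in Snail1-KO cells, with 7 higher and 4 lower, and 0.04 in Snail1-WT cells, with 8 higher and 3 lower. The list's summed unlogged level, to which Itgb3 and Nfatc1 contributed most of the increase, was 1026 with and 549.6 without TGF-b1 in Snail1-KO cells, against 711 with and 483 without it in Snail1-WT cells. Itgb3 alone of the 11 was at least 2-fold apart between the genotypes, and only with TGF-b1. It was higher in Snail1-KO cells by 1.59 with and 0.85 without TGF-b1. The part of these markers in the response of Tnfrsf11b was not tested. Of 8 markers of macrophages and other blood cells, 3 passed the filter, and none was 2-fold apart in any comparison.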

How the data were processed

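RNA from 4 samples, 1 for each group, was measured on Affymetrix arrays after biotin labelling with the WT PLUS kit, per the labels' protocols. The values deposited by the authors are on a log2 scale, and per the submitters' processing notes they come from RMA, run under R 3.1.1. RMA makes the distributions of arrays alike, after a background correction and before probes are summarised, so it removes a shift shared by most genes. The build and annotation were not given in the sources used here. The number of arrays limits the precision.

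Of 41345 probe sets, 23521 had 1 gene symbol in the platform annotation, 1814 had several and 16010 were not named here. All 8 probe sets of the members matched a RefSeq gene by Entrez identifier. Differences of log2 values were computed with Python 3.11.15, numpy 2.4.6 and pandas 2.3.3, and plotted with matplotlib 3.10.9. No significance test was run. The noise SD is the scaled median absolute deviation of the difference of responses among the 500 genes nearest in level, divided by the square root of 2. Alternatives were 1.5-fold in place of 2-fold, all genes in place of the upper 60%, the upper 40%, median centring, cyclic loess (limma 3.58.1 in R 4.3.3) and averaging a gene's probe sets. Promoter sequences are those of RefSeq for GRCm38.p6.

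Named were all members, list genes at least 2-fold apart in any comparison (otherwise the largest, up to 2), and for each kept member that was 2-fold apart the 3 genes nearest in profile, leaving out predicted models and clone names. Markers of other cell types were named after their values were seen. The members and lists were chosen with earlier results of these data known.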

Additional observations from a re-analysis of the deposited data

Results flagged for a closer look

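Opposite signs in the 2 genotypes or treatments were looked for among the members, the genes named above and the list and marker genes; with 1 array a group, none of these differences was tested. No member had them. Of 180 pairs of differences over the 90 measured list and marker genes, 59 had opposite signs, and in 6 of the 59 both differences were larger than the noise SD. These 6 were Snail1-KO minus Snail1-WT for the chondrogenic factor Sox9 (0.39 with and -0.36 without TGF-b1), the adipogenic factor Cebpa (0.22 and -0.66), the vitamin D receptor gene Vdr (-0.26 and 0.27) and Slc20a1 (0.11 and -0.20), and the TGF-b1 response of the chemokine gene Ccl2 (0.24 in Snail1-KO and -0.13 in Snail1-WT cells) and of Adgre1 (-0.29 and 0.29).

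Among genes named above, other pairs of opposite sign had at least 1 difference within the noise SD. Vcam1 was such a gene between the genotypes, at 0.0071 with and -0.27 without TGF-b1. The TGF-b1 response of Ctsk was 0.14 in Snail1-KO and -0.018 in Snail1-WT cells, and that of Ocstamp -0.055 and 0.040. Snail1-KO minus Snail1-WT was -0.35 with and 0.069 without TGF-b1 for Il11, -0.28 and 0.11 for Acp5, -0.046 and 0.049 for Cd68, and 0.295 and -0.071 for Lepr. The TGF-b1 response was 0.10 in Snail1-KO and -0.22 in Snail1-WT cells for Omd, 0.12 and -0.02 for Igf2, -0.0028 and 0.11 for Cep126, -0.29 and 0.09 for Calcr, 0.33 and -0.03 for Lepr, -0.19 and 0.05 for Thy1, and -0.54 and 0.04 for Tnfrsf11a.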

How the results depend on the processing

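Among the members passing the filter, 1 was at least 2-fold apart in each of the 4 comparisons. At 1.5-fold the count was 2 in each: Alpl and Dlx5 between the genotypes with TGF-b1, Alpl and Tnfrsf11b without it, and Dlx5 and Tnfrsf11b after TGF-b1 in each genotype. With no filter the count was 2 in both genotype pairs, because Phex was added, and stayed at 1 after TGF-b1. With the upper 40% of genes kept, whose lowest mean was 5.80, it was 0 in both genotype pairs, because Alpl, with a mean of 5.72, was no longer counted, and it was 1 after TGF-b1. With median centring, cyclic loess and the mean of all probe sets it was 1 in each comparison. At 1.5-fold, 8.14% and 7.15% of kept genes were apart between the genotypes with and without TGF-b1. After TGF-b1 the shares were 5.14% in Snail1-KO and 4.37% in Snail1-WT cells. For the upper 40%, median centring, cyclic loess and the mean of all probe sets, no share of all genes was computed. Those counts therefore show only whether the same members were called.

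Of 35 differences of single members, all stayed within 1 noise SD under median centring (largest shift 0.03) and cyclic loess (largest shift 0.08). The mean of all probe sets moved 2, the genotype differences of Alpl, to -1.23 with and -1.17 without TGF-b1. Tnfsf11 changed sign in 2 of its differences, both smaller than its noise SD: Snail1-KO minus Snail1-WT with TGF-b1 was 0.02 with cyclic loess, and the difference of responses was -0.0023 with median centring. No difference of 2-fold or more changed sign. Signals near the low end of the arrays limit what can be read for Sp7, Phex, Ibsp and Tnfsf11.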
